A study of Mus musculus with 6 samples.

Results

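Integrins are cell surface receptors made of 1 α and 1 β chain, and melusin, encoded by Itgb1bp2, is a cytoplasmic protein of striated muscle that binds the tail of the β1 chain. The 10 genes described here were named by symbol. They are 6 α chains (Itga3, Itga5, Itga6, Itga7, Itga11 and Itgav), 3 β chains (Itgb1, Itgb5 and Itgb7) and Itgb1bp2, among 37991 genes in the files. Earlier results of these data were known when they were named, so the choice may not be independent of their values. All 10 passed the filter on low counts, which left 16472 genes to test.

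The cells were C2C12, a mouse line of myoblasts with C3H as its strain, which leaves the cell cycle and fuses into myotubes when serum is reduced. The series asks how KAP1, a chromatin co-repressor encoded by Trim28, bears on muscle differentiation. The cells of each group carried a lentivirus: with a short hairpin against Kap1 or, in the controls, with a hairpin against luciferase. There were 4 groups. MT_shKap1 and MT_shCtrl were knockdown and control cells switched for 48 hours to 2% horse serum with added insulin, transferrin and selenium (1 library each). MB_shKap1 and MB_shCtrl were knockdown and control cells kept as proliferating myoblasts in 10% fetal calf serum (2 libraries each). Libraries were made from polyadenylated RNA of the cytoplasm, so it came from whole cultures of 1 immortal line and not from muscle fibres. In such bulk RNA, fewer cells of a type and less RNA per cell cannot be told apart.

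In muscle, α7β1 is the main laminin receptor of fibres and of their junctions with tendon, while α6β1 and α3β1 bind laminins in myoblasts and many other cells. The α5β1 pair is the classical fibronectin receptor, αv pairs with several β chains to bind vitronectin and fibronectin, and α11β1 binds fibrillar collagen. The β1 chain partners most α chains, β5 partners αv, and β7 partners α4 and αE on leukocytes. Melusin is known in mice for its part in the heart's response to pressure load, where it works with Hsp90 as a chaperone and signalling scaffold.

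The libraries held 36247530 to 49839994 counts on genes and showed counts for 19386 to 21351 genes. Trim28 stood at 122.3 CPM (reads on the gene scaled by the total of the library) in the MT_shKap1 library and 382.4 CPM in the MT_shCtrl library. It stood at 152.5 and 100.7 CPM in the MB_shKap1 libraries, against 587.3 and 417.4 CPM in the MB_shCtrl libraries, so that each knockdown library was below each control library. The myoblast markers Myod1, Myf5, Des, Cdh15, Vcam1 and Pax7 summed to 973.1 CPM in MT_shKap1, 1860 CPM in MT_shCtrl, 488.9 and 1117 CPM in MB_shKap1 and 596.2 and 1004 CPM in MB_shCtrl. This sum was highest in MT_shCtrl, so here it does not set proliferating myoblasts apart from differentiating cells. Pax7, which marks satellite cells, was near 0 at 0.0214 to 0.301 CPM. The MB libraries split by replicate number. Replicate 2 minus replicate 1 correlated between the knockdown and control MB groups at r = 0.762 across 16472 genes, which are not independent replicates. A mark is found in the file names of the MT libraries and of MB replicate 1, knockdown and control, and is lacking in those of MB replicate 2. The labels do not explain it. Both fits described here were edgeR quasi-likelihood tests with Benjamini-Hochberg adjustment over 16472 genes, 1 without and 1 with a term for that mark. Without the term, the main analysis as planned, edgeR called 0 genes and 0 members in each of 5 contrasts. In what follows, "rose" and "fell" are used of genes with an adjusted p under 0.05 in the fit with the term, and each such call is absent from the fit without it. Each MT arm is 1 library, so MT contrasts lack a replicate check and borrow the spread of the MB libraries. The labels do not say that MB replicates are separate cultures, so the p-values may measure technical spread only.

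Scaled to exon length, so that genes can be compared, the integrin transcripts of these cells were mostly those of Itgb1 and Itga5. Itgb1 had the highest level of the 10 genes in each library, at 149.8 to 214.9 CPM per kb. Itga5 stood at 59 to 99.9 CPM per kb and Itgb5 at 48.4 to 79.1 CPM per kb, and the ranges of these 2 genes overlapped. Itga7 ranged over 9.16 to 85.7 CPM per kb, Itga3 over 7.07 to 30.6, Itgav over 9.08 to 18 and Itga6 over 4.14 to 16.5 CPM per kb, each overlapping the next. The widest spans were those of Itga11 (0.669 to 23.8 CPM per kb), Itgb7 (0.21 to 16.8 CPM per kb) and Itgb1bp2 (0.655 to 55.8 CPM per kb). In CPM, the highest library exceeded the lowest by a ratio of 1.43 for Itgb1, 1.63 for Itgb5, 1.69 for Itga5 and 1.98 for Itgav. That ratio was 3.98 for Itga6, 4.33 for Itga3, 9.35 for Itga7, 35.6 for Itga11, 80.1 for Itgb7 and 85.1 for Itgb1bp2. Itgb1, Itgb5 and Itga5 thus varied least in these 6 libraries, followed by Itgav, whose level was lower than theirs. Per exon length the 6 α members held 98.1% to 99% of the summed level of 18 α chain genes, and the 3 β members 92.1% to 96.6% of that of 9 β chain genes.

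**Figure D1:**
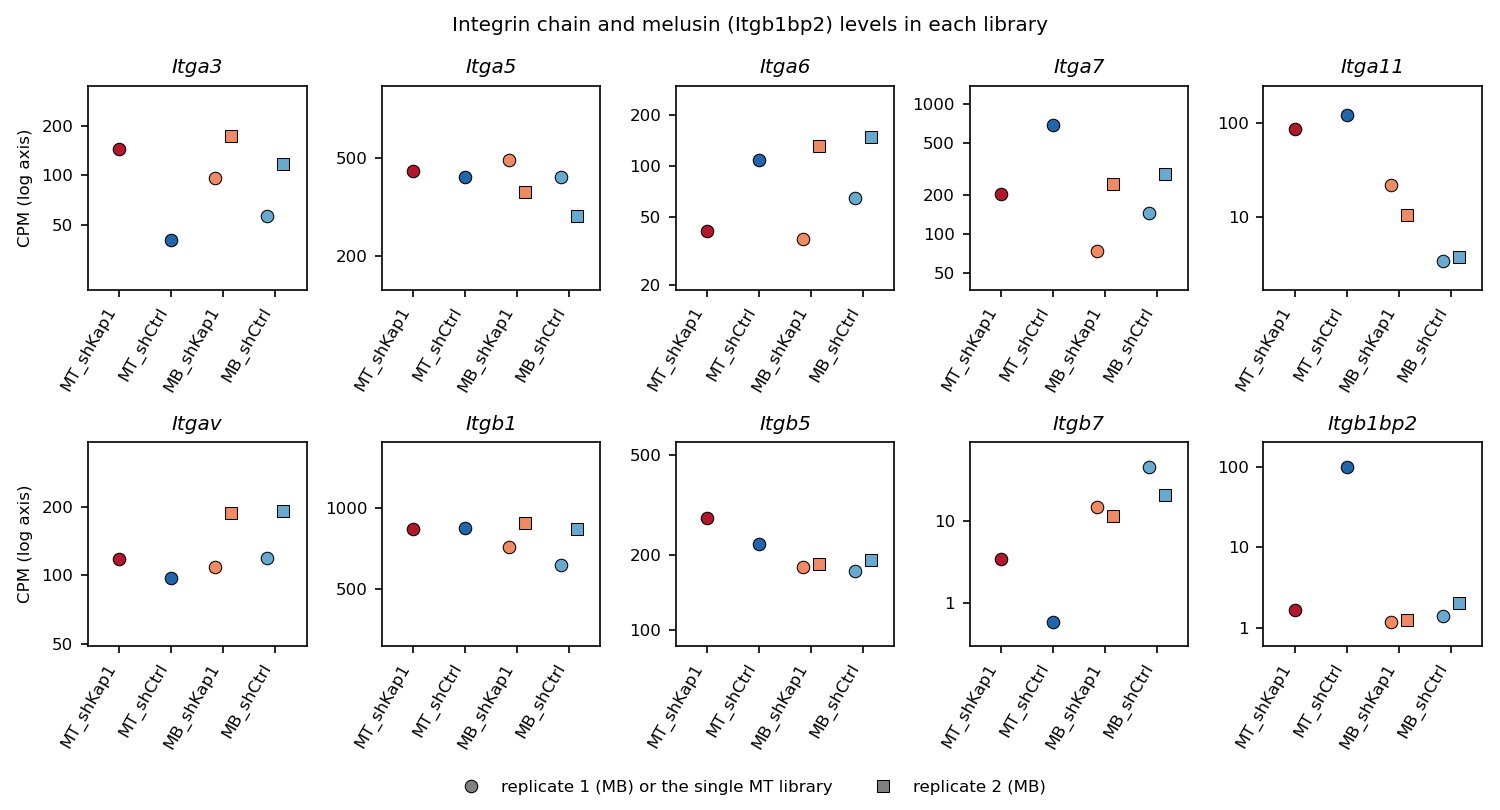
Level of each of the 10 genes in each library, in CPM on a log axis whose range differs between panels; circles are MB replicate 1 or the single MT library, squares MB replicate 2. Itgb1bp2 is at 1.68 CPM in MT_shKap1 and 100.3 CPM in MT_shCtrl, with 1.18 to 2.02 CPM in the MB libraries, and Itgb7 is lowest in MT_shCtrl.

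Melusin transcript was abundant in a single library. Itgb1bp2 (ENSMUSG00000031312, chromosome X) stood at 1.68 CPM in the MT_shKap1 library, from 61 counts, against 100.3 CPM in the MT_shCtrl library, from 5001 counts. It stood at 1.18 and 1.26 CPM in the MB_shKap1 libraries, against 1.41 and 2.02 CPM in the MB_shCtrl libraries. The MT_shKap1 library thus lay among the 4 MB libraries, and the MT_shCtrl library far above them. The ratio of MT_shKap1 to MT_shCtrl was 0.0168, with an interval of 0.0128 to 0.0216 that covers counting error only. Itgb1bp2 fell by 6.03 on the log2 scale (SE 0.223) in MT_shKap1 relative to MT_shCtrl (edgeR with the mark term, adjusted p = 7.99e-08). Without the term the difference was also -6.03 (adjusted p = 0.457, edgeR). It rose by 6.07 on the log2 scale in MT_shCtrl relative to MB_shCtrl (SE 0.197, adjusted p = 9.92e-09, edgeR with the term), whereas in knockdown cells the MT minus MB difference was 0.55 (SE 0.249, adjusted p = 0.118). The MB_shKap1 minus MB_shCtrl difference was -0.51 (SE 0.185, adjusted p = 0.189, edgeR with the term), and both knockdown MB libraries lay below both controls.

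Markers of differentiated muscle were measured beside melusin, and differed in part as it did. The 9 markers (Myog, Mymk, Mymx, Ckm, Acta1, Myh3, Tnnt3, Actn2 and Ttn) summed to 138.4 CPM in the MT_shKap1 library, against 7986 CPM in the MT_shCtrl library. They summed to 16.1 and 82.2 CPM in the MB_shKap1 libraries and to 17 and 141.9 CPM in the MB_shCtrl libraries, and none was at 0 in any library. Of these 9, 8 fell in MT_shKap1 relative to MT_shCtrl, and 9 rose in MT_shCtrl relative to MB_shCtrl (edgeR with the mark term). Over all genes tested 11.2% fell in the MT knockdown contrast and 22.3% rose in control differentiation. In MT_shKap1 relative to MB_shKap1 7 of the 9 rose, with 16.6% of all genes called higher. With the mark term the median log2 difference of the 9 was 3.75, whereas the difference of Itgb1bp2 was 0.55 and did not pass. The estimate of the mark term enters the value of 3.75, and edgeR without the term called 0 genes in this contrast. The marker sum of 138.4 CPM in MT_shKap1 stood against 16.1 CPM in MB_shKap1 replicate 1 but 82.2 CPM in replicate 2. In MB_shKap1 relative to MB_shCtrl 3 fell, among them Myog, a transcription factor of early differentiation, with 1.34% of all genes called lower. The summed markers also differed between the MB replicates far more than Itgb1bp2, which was 1.07 times as high in replicate 2 as in replicate 1 of MB_shKap1 and 1.43 times in MB_shCtrl. The part of the state of differentiation in the member values was not tested.

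The genes whose pattern was most like that of melusin, by Pearson's r of log2 CPM over the 6 libraries among 12535 genes with a mean of at least 1 CPM, were Smim5 (r = 0.9983), Ankrd2 (0.9971), Fam162a (0.9960), Prkaa2 (0.9959) and Cd164 (0.9954). These values rest on the MT_shCtrl library, in which each gene was highest. Smim5 had 0.441 CPM in the MT_shKap1 library and 24.6 CPM in the MT_shCtrl library, and Ankrd2, a muscle ankyrin repeat protein, had 0.193 CPM in MT_shKap1 and 8.03 CPM in MT_shCtrl. Prkaa2, the α2 catalytic subunit of the kinase AMPK, had 4.47 CPM in MT_shKap1 and 20.7 CPM in MT_shCtrl. The libraries share their depth and culture with each gene compared, and the coefficients are a description.

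Among the laminin-binding α chains, Itga7 and Itga6 were lower in differentiating knockdown cells than in differentiating controls and Itga3 was higher. Itga7 (ENSMUSG00000025348, chromosome 10) stood at 202.6 CPM in the MT_shKap1 library, against 693.3 CPM in the MT_shCtrl library. It stood at 74.1 and 244.8 CPM in replicates 1 and 2 of MB_shKap1, against 144.5 and 292.5 CPM in replicates 1 and 2 of MB_shCtrl. The MT_shCtrl library was the highest, and the MT_shKap1 library lay within the range of each MB group. Itga7 fell by 1.91 on the log2 scale in MT_shKap1 relative to MT_shCtrl (SE 0.276, adjusted p = 0.0116, edgeR with the mark term), with an adjusted p of 0.675 without the term. It rose by 2.45 in MT_shCtrl relative to MB_shCtrl (SE 0.243, adjusted p = 0.00126, edgeR with the term). Against MB_shCtrl replicate 2 alone that difference was 1.25. In knockdown cells it rose by 1.18 with the term (SE 0.253, adjusted p = 0.0247, edgeR), but against MB_shKap1 replicate 2 alone the difference was -0.39. In MB the knockdown minus control difference was -0.64 (SE 0.192, adjusted p = 0.199, edgeR with the term), and the groups' libraries overlapped.

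Itga6 (ENSMUSG00000027111, chromosome 2) stood at 41.5 CPM in the MT_shKap1 library, against 108.6 CPM in the MT_shCtrl library. It stood at 37.4 and 132.5 CPM in replicates 1 and 2 of MB_shKap1, against 65.2 and 148.6 CPM in replicates 1 and 2 of MB_shCtrl. Within MB the replicates differed more than knockdown and control did, with replicate 2 at 3.55 times replicate 1 in MB_shKap1 and 2.28 times in MB_shCtrl. Itga6 fell by 1.52 on the log2 scale in MT_shKap1 relative to MT_shCtrl (SE 0.244, adjusted p = 0.0122, edgeR with the mark term). Without the term its adjusted p was 0.759. It rose by 0.91 in MT_shCtrl relative to MB_shCtrl (SE 0.216, adjusted p = 0.0201, edgeR with the term), although the MT_shCtrl library lay between both MB_shCtrl libraries and the difference was -0.45 against replicate 2 alone.

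Itga3 (ENSMUSG00000001507, chromosome 11) went the other way. It stood at 144.5 CPM in the MT_shKap1 library, against 40.3 CPM in the MT_shCtrl library. It stood at 96 and 174.8 CPM in replicates 1 and 2 of MB_shKap1, against 56.5 and 116.8 CPM in replicates 1 and 2 of MB_shCtrl. The MT_shCtrl library was the lowest of the 6, and the MB groups overlapped although each knockdown library was above its same-numbered control. Itga3 rose by 1.70 on the log2 scale in MT_shKap1 relative to MT_shCtrl (SE 0.139, adjusted p = 2.19e-05, edgeR with the mark term), with an adjusted p of 0.616 without the term. It rose by 0.64 in MB_shKap1 relative to MB_shCtrl (SE 0.0955, adjusted p = 0.00529, edgeR with the term), by 0.72 within replicate 1 and 0.56 within replicate 2. Without the term, that MB difference was 0.10 without MB_shKap1 replicate 2, 0.18 without MB_shCtrl replicate 1 and 1.24 without MB_shCtrl replicate 2. Itga3 fell by 0.51 in MT_shCtrl relative to MB_shCtrl (SE 0.129, adjusted p = 0.00938, edgeR with the term), and the difference against MB_shCtrl replicate 2 alone was -1.53. In knockdown cells it rose by 0.55 with the term (SE 0.124, adjusted p = 0.00708, edgeR), but the difference was -0.39 without MB_shKap1 replicate 1 and -0.01 in the fit without the term.

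As shares of the 6 α members per exon length, Itga7 took 14.5% in the MT_shKap1 library and 38.4% in the MT_shCtrl library. Itga3 took 14.7% in MT_shKap1 and 3.17% in MT_shCtrl. Itga5 took 52.1% in MT_shKap1 and 38.3% in MT_shCtrl, so that Itga5 and Itga7 were level in the MT_shCtrl library alone of the 6. In the MB libraries Itga7 took 6.34% and 17.9% in MB_shKap1, against 13.5% and 24% in MB_shCtrl, and Itga5 took 69.2% and 43.8% in MB_shKap1, against 64.6% and 39.1% in MB_shCtrl. In both MB groups the first of these values is replicate 1, and the replicates differed more than the groups.

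**Figure D2:**
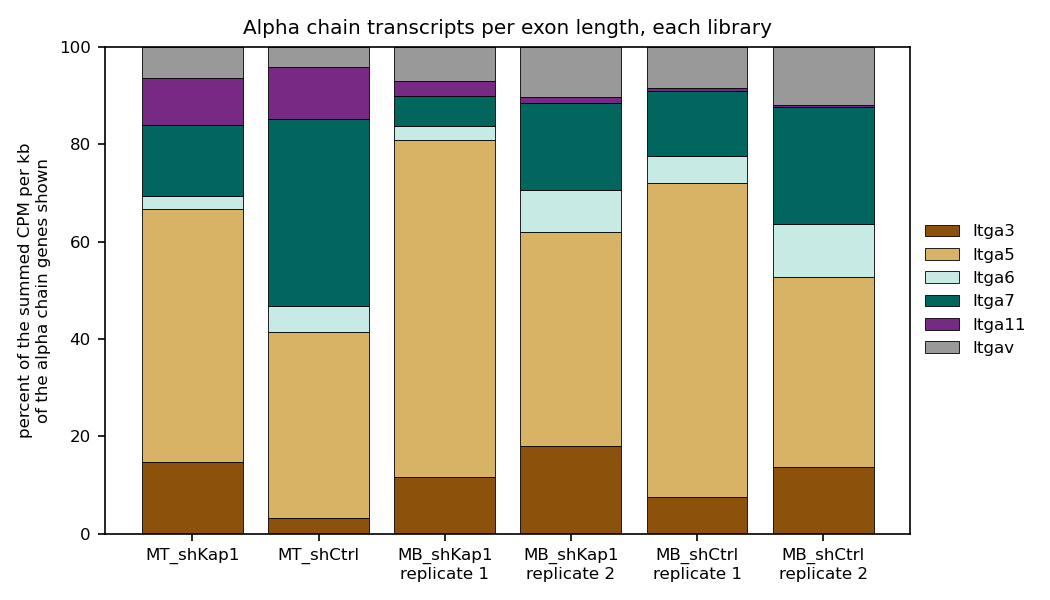
Percent of the summed CPM per kb of exon taken by each of the 6 α chain genes, 1 bar per library. Itga7 takes 14.5% in MT_shKap1, 38.4% in MT_shCtrl and 6.34% to 24% in the MB libraries, while Itga5 takes 52.1% in MT_shKap1, 38.3% in MT_shCtrl and 39.1% to 69.2% in the MB libraries.

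The genes most like Itga7 by the same measure were Nes (r = 0.9924), Cavin4 (0.9918), Vps8 (0.9885), Phka2 (0.9865) and Akr1b8 (0.9848). Nes, which encodes the intermediate filament nestin of muscle and nerve precursors, had 503.6 CPM in the MT_shKap1 library and 1287 CPM in the MT_shCtrl library. It had 280.8 and 676.1 CPM in replicates 1 and 2 of MB_shKap1, against 456.6 and 732.7 CPM in replicates 1 and 2 of MB_shCtrl, and so shared the split by replicate number. Cavin4, a caveolar protein of muscle, had 47.4 CPM in MT_shKap1 and 161.7 CPM in MT_shCtrl. Between Itga7 and Itgb1bp2 r was 0.81.

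Itga3 and Itgb7 were the 2 members called in each of the 5 contrasts with the mark term, and the promoter sequence of both is shown for that reason. The sequences are from RefSeq on build GRCm38.p6, with each E-box (CANNTG, the motif bound by MyoD and other basic helix-loop-helix factors, which reads as CANNTG on both strands) in capitals. The Itga3 stretch is chr11:95076802-95076964 and the Itgb7 stretch chr15:102231945-102232185, both on the minus strand, written 5′ to 3′ and ending just before the annotated transcripts.
Itga3: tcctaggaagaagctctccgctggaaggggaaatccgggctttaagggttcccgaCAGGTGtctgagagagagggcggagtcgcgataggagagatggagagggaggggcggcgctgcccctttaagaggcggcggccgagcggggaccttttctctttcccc
Itgb7: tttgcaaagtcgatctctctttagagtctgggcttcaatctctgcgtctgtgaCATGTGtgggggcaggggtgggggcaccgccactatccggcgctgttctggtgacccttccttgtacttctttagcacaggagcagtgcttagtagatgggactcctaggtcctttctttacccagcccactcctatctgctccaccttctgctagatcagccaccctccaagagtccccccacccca
Each stretch held 1 E-box. The RefSeq promoter table held 7 of the 10 members, and 5 of those 7 had a CANNTG in the 250 bases before their start, against 66.2% of 32851 windows of that length. CAGCTG, 1 form of that motif, was in 1 of the 7 (Itgb5), against 13% of the windows. Itga6, Itga7 and Itgb1bp2 were not analysed here for promoter sequence. A match is a description of letters and not of a bound site.

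The fibronectin and vitronectin receptor α chains Itga5 and Itgav did not pass the test in any contrast. Itga5 (ENSMUSG00000000555, chromosome 15) stood at 442.5 CPM in the MT_shKap1 library and 421.3 CPM in the MT_shCtrl library. It stood at 492.9 and 365.3 CPM in replicates 1 and 2 of MB_shKap1, against 421.2 and 291.2 CPM in replicates 1 and 2 of MB_shCtrl. The groups overlapped, and the log2 difference of knockdown minus control was -0.07 (SE 0.138, adjusted p = 0.786) in MT and 0.25 (SE 0.0979, adjusted p = 0.227) in MB (edgeR with the mark term). Itgav (ENSMUSG00000027087, chromosome 2) stood at 118.7 CPM in MT_shKap1 and 97.5 CPM in MT_shCtrl. It stood at 108.7 and 189.1 CPM in MB_shKap1, against 118.9 and 193.2 CPM in MB_shCtrl, and overlapped too. Its knockdown minus control difference was 0.15 (SE 0.134, adjusted p = 0.488) in MT and -0.11 (SE 0.0944, adjusted p = 0.621) in MB (edgeR with the term). Itgav shares 634 exon bases with Gm13684 on the opposite strand, and the labels do not say whether the counting used strand. Gm13684 itself had 0.0458 to 0.15 CPM. Itga7 shares 9 exon bases with Mettl7b on the opposite strand, which had 0 to 0.0916 CPM.

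The collagen receptor chain Itga11 (ENSMUSG00000032243, chromosome 9) was a gene of the differentiating cultures. It stood at 85.1 CPM in the MT_shKap1 library and 122.2 CPM in the MT_shCtrl library. It stood at 21.8 and 10.5 CPM in the MB_shKap1 libraries, against 3.43 and 3.86 CPM in the MB_shCtrl libraries. Both MT libraries were above the 4 MB libraries, and both MB_shKap1 libraries above both MB_shCtrl libraries. Itga11 rose by 4.80 on the log2 scale in MT_shCtrl relative to MB_shCtrl (SE 0.496, adjusted p = 0.0172, edgeR with the mark term), against 5.08 and an adjusted p of 0.0533 without the term. With the term but no filter on low counts it was 4.78 and did not pass (adjusted p = 0.141, edgeR). In knockdown cells the MT minus MB difference was 2.09 (SE 0.438, adjusted p = 0.0771, edgeR with the term). DESeq2 called that difference both with and without the term. The MB_shKap1 minus MB_shCtrl difference was 2.04 (SE 0.403, adjusted p = 0.21, edgeR with the term), being 2.61 within replicate 1 and 1.41 within replicate 2. That MB difference did not pass in either edgeR fit, while DESeq2 called it both with and without the term. In MT the knockdown minus control difference was -0.66 (SE 0.462, adjusted p = 0.459, edgeR with the term).

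Of the β chains, Itgb7 was called in both knockdown contrasts, and Itgb1 and Itgb5 in neither. Itgb1 (ENSMUSG00000025809, chromosome 8) stood at 831.1 CPM in the MT_shKap1 library and 843.9 CPM in the MT_shCtrl library. It stood at 713.4 and 877.1 CPM in replicates 1 and 2 of MB_shKap1, against 611.5 and 832.9 CPM in replicates 1 and 2 of MB_shCtrl. The groups overlapped, with a knockdown minus control log2 difference of -0.16 (SE 0.143, adjusted p = 0.483) in MT and 0.12 (SE 0.101, adjusted p = 0.619) in MB (edgeR with the mark term). It rose by 0.45 in MT_shCtrl relative to MB_shCtrl (SE 0.134, adjusted p = 0.0188, edgeR with the term), but the difference was 0.02 against MB_shCtrl replicate 2 alone. The β1 chain gene and the gene of its partner melusin thus differed between the MT libraries by very unequal amounts.

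Itgb5 (ENSMUSG00000022817, chromosome 16) stood at 281.1 CPM in the MT_shKap1 library and 220.8 CPM in the MT_shCtrl library. It stood at 178.4 and 184.1 CPM in MB_shKap1, against 172 and 189.5 CPM in MB_shCtrl, so that both MT libraries were above the 4 MB libraries. It rose by 0.60 in MT_shKap1 relative to MB_shKap1 (SE 0.123, adjusted p = 0.00465, edgeR with the mark term), and by 0.36 in MT_shCtrl relative to MB_shCtrl (SE 0.124, adjusted p = 0.0361, edgeR with the term). DESeq2 with the term did not call the MT_shCtrl difference (0.40, adjusted p = 0.0672). Knockdown minus control was 0.21 (SE 0.133, adjusted p = 0.304) in MT and -0.02 (SE 0.0943, adjusted p = 0.935) in MB (edgeR with the term).

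Itgb7 (ENSMUSG00000001281, chromosome 15) stood at 3.48 CPM in the MT_shKap1 library, from 126 counts, against 0.582 CPM in the MT_shCtrl library, from 29 counts. It stood at 14.9 and 11.7 CPM in the MB_shKap1 libraries, against 46.6 and 21.1 CPM in the MB_shCtrl libraries. Each MT library was below each MB library, and the knockdown library lay above its control in MT while both knockdown libraries lay below both controls in MB. The ratio of MT_shKap1 to MT_shCtrl was 5.97, with a counting interval of 3.96 to 9.28. Itgb7 rose by 2.44 on the log2 scale in MT_shKap1 relative to MT_shCtrl (SE 0.445, adjusted p = 0.0157, edgeR with the mark term) and fell by 1.29 in MB_shKap1 relative to MB_shCtrl (SE 0.21, adjusted p = 0.0345, edgeR with the term). Without the term the adjusted p was 0.531 in MT and 1 in MB, and without MB_shCtrl replicate 1 the MB difference was -0.70. Relative to the myoblasts, Itgb7 fell by 6.12 in MT_shCtrl (SE 0.398, adjusted p = 9.52e-05) and by 2.39 in MT_shKap1 (SE 0.323, adjusted p = 0.00337, edgeR with the term). Leukocytes are the usual source of β7, and 6 leukocyte markers (Ptprc, Cd68, Adgre1, Itgam, Itgb2 and Cd3e) summed to 4 CPM in MT_shKap1, 8.07 CPM in MT_shCtrl, 2.43 to 4.16 CPM in MB_shKap1 and 3.25 to 4.91 CPM in MB_shCtrl. Adgre1 was at 0 in the 6 libraries, Cd3e in 5 and Ptprc, which marks leukocytes in general, in 3. In the 4 MB libraries Itgb7 alone exceeded the summed markers.

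**Figure D3:**
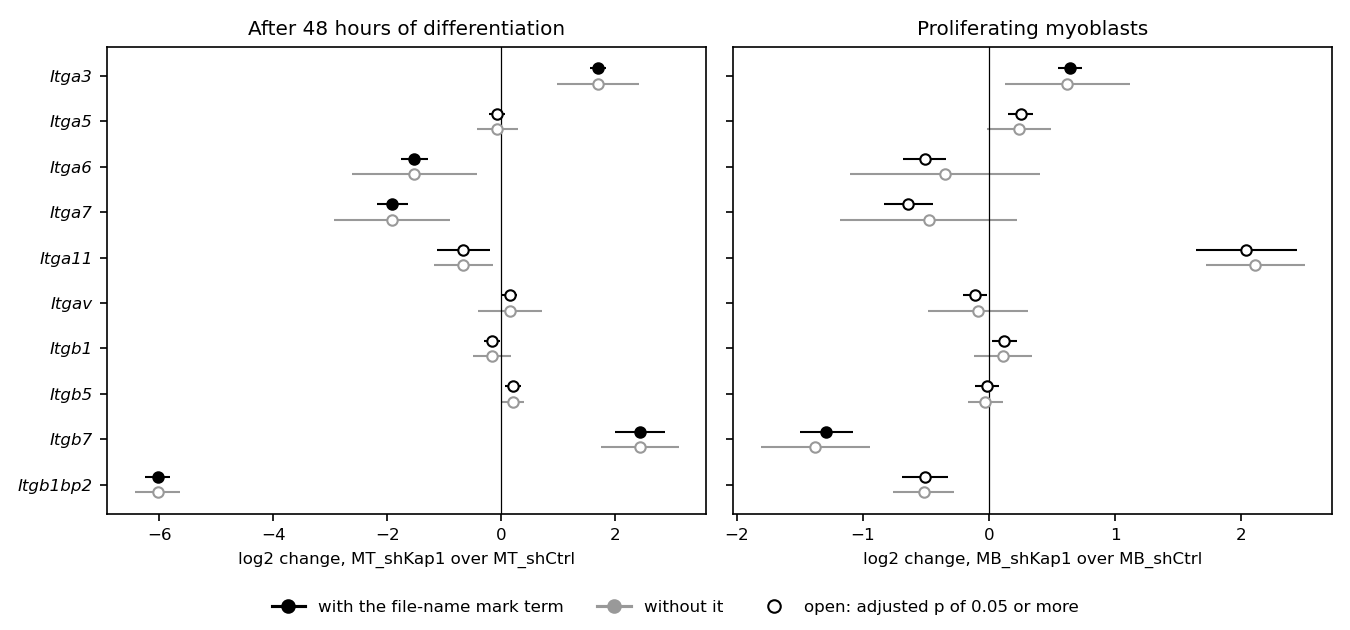
Log2 change of knockdown over control for each gene in MT (left) and MB (right), with the standard error as a bar; black is the edgeR fit with the file-name mark term, grey the fit without it, and filled symbols have an adjusted p under 0.05. The point estimates of both fits nearly coincide, and the horizontal ranges of the panels differ. The bars without the term are longer, except that of Itga11 in MB (0.393 without the term, 0.403 with it).

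With the mark term, more members were called for the knockdown after 48 hours of differentiation than in proliferating myoblasts, as were more of all genes tested. In MT_shKap1 relative to MT_shCtrl, 2 of 10 members rose (Itga3 and Itgb7) and 3 fell (Itga6, Itga7 and Itgb1bp2), while 20.3% of all genes tested were called in either direction, 9.10% higher and 11.2% lower (edgeR with the mark term). The members' median log2 difference was -0.11, against 0.02 over all genes tested. In MB_shKap1 relative to MB_shCtrl, 1 member rose (Itga3) and 1 fell (Itgb7), with 3.83% of all genes called, 2.50% higher and 1.34% lower, and medians of -0.07 for the members and -0.01 for all genes. Without the term edgeR called 0 of 10 members in both, and 1383 genes in MT and 454 in MB had an unadjusted p under 0.05. The members among these were Itgb1bp2 and Itgb7 in MT, and Itga11 and Itgb7 in MB. DESeq2 without the term called 368 genes in MT, among them Itgb1bp2 and Itgb7, and 50 in MB, among them Itga11.

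In control cells, 6 members rose at 48 hours (Itga6, Itga7, Itga11, Itgb1, Itgb5 and Itgb1bp2) and 2 fell (Itga3 and Itgb7) relative to MB_shCtrl, with 44.9% of all genes called, 22.3% higher and 22.6% lower (edgeR with the mark term). The members' median was 0.41, against -0.01 over all genes. In knockdown cells, 3 rose (Itga3, Itga7 and Itgb5) and 1 fell (Itgb7) relative to MB_shKap1, with 33.1% of all genes called, 16.6% higher and 16.5% lower, and medians of 0.36 for the members and 0.02 for all genes. Without the term edgeR called 0 of 10 members in both, with 4174 genes in control and 2511 in knockdown cells at an unadjusted p under 0.05, 3 members among each. DESeq2 without the term called 2370 genes in control cells, among them Itga11, Itgb7 and Itgb1bp2, and 843 in knockdown cells, among them Itga11 and Itgb7.

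The knockdown difference itself differed between the stages for 3 members. The MT minus MB difference of the knockdown log2 change was -5.53 for Itgb1bp2 (SE 0.286, adjusted p = 2.55e-06), 3.72 for Itgb7 (SE 0.488, adjusted p = 0.00808) and 1.06 for Itga3 (SE 0.166, adjusted p = 0.00291), all from edgeR with the mark term. With the term 10.5% of all genes were called in this contrast, 3.83% higher and 6.64% lower, and the members' median was -0.29, against 0.02 over all genes. For Itga7 the value was -1.28 (adjusted p = 0.0889), for Itga6 -1.02 (adjusted p = 0.104) and for Itga11 -2.70 (adjusted p = 0.165), which did not pass (edgeR with the term). Without the term edgeR called 0 of 10, with 825 genes and 3 members (Itga11, Itgb7 and Itgb1bp2) at an unadjusted p under 0.05, and DESeq2 called 168 genes and the same 3 members. Without the term the Itga3 value was 0.45 without MB_shCtrl replicate 2 and 1.61 without MB_shKap1 replicate 2.

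Integrin chains outside the members were measured too. Itgb8, a further partner of αv, had 9.21 CPM in MT_shKap1 and 9.71 CPM in MT_shCtrl. It had 5.72 and 14.3 CPM in replicates 1 and 2 of MB_shKap1, against 8.27 and 20.3 CPM in replicates 1 and 2 of MB_shCtrl. Of 18 such genes in the files 15 passed the filter, and in MT_shKap1 relative to MT_shCtrl 1 rose and 5 fell (edgeR with the mark term, median -0.35), with 9.10% of all genes called higher and 11.2% lower. Itgb3, the β partner of αv and of αIIb, stood at 72.4 CPM in the MT_shKap1 library and 33.5 CPM in the MT_shCtrl library. It stood at 108.3 and 79.2 CPM in MB_shKap1, against 85.6 and 85.9 CPM in MB_shCtrl, so that the MT_shCtrl library was lowest. Itgb3 rose by 0.97 on the log2 scale in MT_shKap1 relative to MT_shCtrl (SE 0.168, adjusted p = 0.00429, edgeR with the term) and fell by 1.44 in MT_shCtrl relative to MB_shCtrl (SE 0.163, adjusted p = 0.000136). Itga10, a collagen receptor chain, stood at 2.26 CPM in MT_shKap1 and 9.35 CPM in MT_shCtrl, with 0.87 to 1.65 CPM in the MB libraries, and fell by 2.18 in MT_shKap1 (SE 0.338, adjusted p = 0.00157, edgeR with the term). Itga4, a partner of β1 and β7, stood at 0.772 CPM in MT_shKap1 and 3.31 CPM in MT_shCtrl. It stood at 0.364 and 6.92 CPM in replicates 1 and 2 of MB_shKap1, against 0.596 and 6.54 CPM in replicates 1 and 2 of MB_shCtrl, and so followed the replicate number. Itgae, the other partner of β7, had 0.414 CPM in MT_shKap1, 0.482 CPM in MT_shCtrl and 0.429 to 0.55 CPM in the MB libraries. In MB_shKap1 relative to MB_shCtrl 0 of the 15 were called with the term, with 3.83% of all genes called. In control differentiation 8 rose and 1 fell, with 22.3% of all genes called higher and 22.6% lower. DESeq2 with the term called 4 higher and 1 lower. Itgam had 69 counts in MT_shCtrl and 1 to 4 in the other libraries, and Itgad 20 against 0 to 2. Both passed the filter only through MT_shCtrl, so that a higher level there is no independent result for them.

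Genes of extracellular integrin ligands were more often called lower than higher in MT_shKap1 relative to MT_shCtrl. Of 42 ligand genes in the files 38 were tested, and in MT_shKap1 relative to MT_shCtrl 2 rose and 20 fell (edgeR with the mark term), with 9.10% of all genes called higher and 11.2% lower, and a median log2 difference of -0.73, against 0.02 over all genes. Npnt, which encodes nephronectin, a ligand of α8β1, had 20.8 CPM in the MT_shKap1 library and 314.8 CPM in the MT_shCtrl library, and fell by 4.06 (SE 0.179, adjusted p = 7.96e-07, edgeR with the term). Lama2, the laminin α2 chain bound by α7β1 in muscle, had 42.3 CPM in MT_shKap1 and 112 CPM in MT_shCtrl, and fell by 1.54 (SE 0.191, adjusted p = 0.00135, edgeR with the term). Lamc1, the γ1 chain of most laminins, had 109.9 CPM in MT_shKap1 and 311.9 CPM in MT_shCtrl, and fell by 1.64. The 2 that rose were Mfge8, a ligand of αv integrins (320.1 CPM in MT_shKap1, 146.7 CPM in MT_shCtrl), and Ccn1, a matricellular ligand (439.1 CPM in MT_shKap1, 252 CPM in MT_shCtrl). In control differentiation 21 ligands rose and 5 fell, with 22.3% of all genes called higher and 22.6% lower. Lamc3, with 31 counts in MT_shCtrl and 1 to 4 in the other libraries, passed the filter only through MT_shCtrl. In MT_shKap1 relative to MB_shKap1 14 rose and 7 fell, with a median of 0.32 and 16.6% of all genes called higher and 16.5% lower.

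In the myoblasts 9 ligand genes rose and 5 fell in MB_shKap1 relative to MB_shCtrl (edgeR with the mark term), with 2.50% of all genes called higher and 1.34% lower. Fn1, which encodes fibronectin, stood at 8189 CPM in the MT_shKap1 library and 10337 CPM in the MT_shCtrl library, and at 4404 and 3996 CPM in MB_shKap1, against 2765 and 2647 CPM in MB_shCtrl. It rose by 0.60 in MB (SE 0.111, adjusted p = 0.0149, edgeR with the term), and the MT knockdown minus control difference was -0.47 (SE 0.156, adjusted p = 0.0579). Postn, which encodes periostin, had 707.8 and 259.3 CPM in MB_shKap1, against 230.3 and 116.4 CPM in MB_shCtrl, and rose by 1.36. Spp1, which encodes osteopontin, had 1087 and 1508 CPM in MB_shKap1, against 2313 and 2731 CPM in MB_shCtrl, and fell by 1.00 (SE 0.112, adjusted p = 0.00125, edgeR with the term). In both genes each knockdown library lay on 1 side of both controls.

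Inside the cell, 50 of 52 adaptor genes of integrin adhesions were tested. In MT_shKap1 relative to MT_shCtrl 4 rose and 11 fell with TMM scaling, and 8 rose and 10 fell when libraries were scaled by total count (edgeR with the mark term). With TMM 20.3% of all genes were called in this contrast, 9.10% higher and 11.2% lower. Over all genes tested, total count scaling called 2330 higher and 1384 lower, against 1499 and 1843 with TMM. Scaling by total count moved the median log2 difference of all genes in this contrast to 0.155, against 0.018 with TMM, while the members' calls were the same. Cav3, the caveolin of muscle, had 0.331 CPM in the MT_shKap1 library and 36.7 CPM in the MT_shCtrl library. Flnc, the filamin of striated muscle, had 301.1 CPM in MT_shKap1 and 992.6 CPM in MT_shCtrl and fell by 1.86, and Pxn, which encodes paxillin, had 51.1 CPM in MT_shKap1 and 134.5 CPM in MT_shCtrl and fell by 1.53. Fhl2, a LIM protein that binds integrin tails, had 194.7 CPM in MT_shKap1 and 79.7 CPM in MT_shCtrl and rose by 1.15. In MB_shKap1 relative to MB_shCtrl 0 of the 50 were called with the term, with 3.83% of all genes called.

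Among 11 relatives, chaperones and signalling partners of melusin, 1 rose and 1 fell in MT_shKap1 relative to MT_shCtrl (edgeR with the mark term). Under this TMM scaling 9.10% of all genes were called higher and 11.2% lower. With scaling by total count 2 rose and 1 fell, with 2330 of all genes tested called higher and 1384 lower. Nmrk2, a muscle nicotinamide riboside kinase also known as a β1 binding protein, had 0.662 CPM in the MT_shKap1 library and 63.3 CPM in the MT_shCtrl library, with 0 to 0.344 CPM in the MB libraries. It fell by 6.71 on the log2 scale in MT_shKap1 relative to MT_shCtrl (SE 0.297, adjusted p = 2.9e-07, edgeR with the term). Iqgap1, a scaffold that melusin binds, had 370.3 CPM in MT_shKap1 and 223.9 CPM in MT_shCtrl, and rose by 0.59 (SE 0.154, adjusted p = 0.0236). Chordc1, the widely expressed relative of melusin with the same zinc-binding domains, had 71.2 CPM in MT_shKap1 and 61.8 CPM in MT_shCtrl, and 76.2 to 93.9 CPM in MB_shKap1, against 83 to 101.2 CPM in MB_shCtrl. Its MT knockdown minus control difference was 0.07 (SE 0.13, adjusted p = 0.759, edgeR with the term). In control differentiation 1 of the 11 rose and 8 fell, Hsp90aa1 by 1.27 and Hsp90ab1 by 0.70, with 22.3% of all genes called higher and 22.6% lower.

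**Figure D4:**
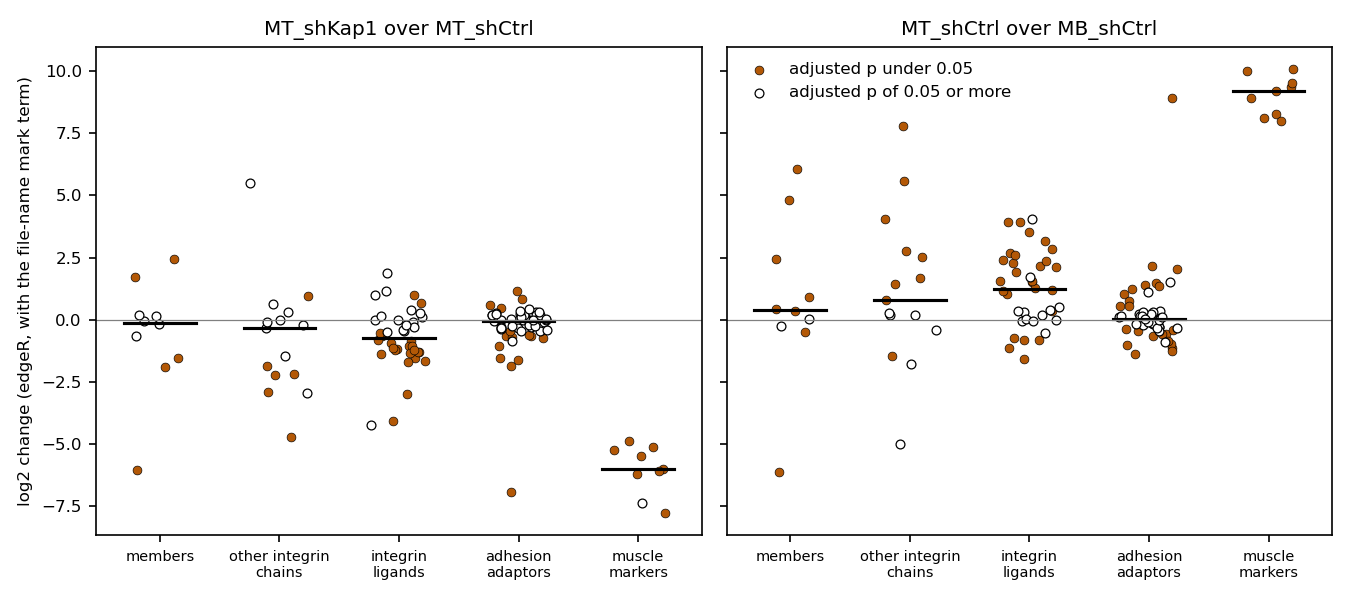
Log2 change (edgeR with the file-name mark term) of the 10 members and of the tested genes of 4 other lists, 1 point per gene, with the list's median as a bar, for MT_shKap1 over MT_shCtrl (left) and MT_shCtrl over MB_shCtrl (right). The integrin ligands have a median of -0.73 on the left and 1.23 on the right, and the muscle markers of -6.01 and 9.21; values of genes with few counts depend on the prior count of the fit.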

How the data were processed

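Each of the 6 deposited tables holds raw read counts for 37991 Ensembl genes. TopHat2 2.0.11, HTSeq and the mm9 genome are named in the submitters' processing notes. The annotation release, counting mode and strand setting are, in the sources used here, not given. Reads in no gene (5.18% to 8.07%) and ambiguous reads (2.81% to 2.93%) were left out of library sizes. Groups and replicate numbers came from the sample titles. Chromosomes and exon lengths came from GENCODE M21 (GRCm38). Symbols came from a separate list of gene names, matched on Ensembl identifier for 32919 genes. CPM is the count over the library's total on genes, and CPM per kb divides it by the union exon length. In each library 3 counts correspond to 0.0602 to 0.0828 CPM.

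The test was that of edgeR 4.0.16 under R 4.3.3 (robust quasi-likelihood, TMM scaling, filterByExpr by group, Benjamini-Hochberg adjustment within a contrast, threshold 0.05). All 6 libraries entered 1 fit of group means. SE is the log2 change over the square root of its F. Residual degrees of freedom were 2 without the mark term and 1 with it, and the common biological coefficient of variation was 32.9% without it and 9.78% with it. Within MB the mark equals the replicate number. The estimate of the mark term enters both differentiation contrasts, and contrasts that share a group share its libraries. Alternatives were DESeq2 1.42.0, DESeq2 size factors, scaling by total count, no filter, and leaving out each MB library. The code was run on simulated counts with known knockdown changes, a built-in shift between marked and unmarked files, a fixed spread and no differentiation change. Since that shift was built in, the run cannot show whether the mark term suits the real libraries. Intervals at the 95% level cover counting error only.

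Genes named outside the members were, per list, up to 4 each way with the largest log2 change among those called with the mark term with a mean of at least 1 CPM, any other integrin chain, Trim28, and the 5 genes most like Itgb1bp2 and Itga7. Fn1, Chordc1 and the markers were named after their values were seen. The members, lists and comparisons were chosen with earlier results of these data known.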

Additional observations from a re-analysis of the deposited data

Results flagged for a closer look

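For melusin and 7 integrin chains, 3 of the 10 members and 5 of 15 other chains tested, the knockdown effect differed between MT and MB by a test of the difference itself (MT knockdown log2 change minus MB knockdown log2 change, edgeR with the mark term, Benjamini-Hochberg adjusted), with 10.5% of all genes called in this contrast. The difference was -5.53 for Itgb1bp2 (adjusted p = 2.55e-06), 3.72 for Itgb7 (adjusted p = 0.00808) and 1.06 for Itga3 (adjusted p = 0.00291). Itga8, called with 0 counts in 1 library, has a fitted value that depends on the prior count and is given none here. Among the chains outside the members with a mean of at least 1 CPM it was -2.54 for Itgb6 (adjusted p = 0.015), -2.08 for Itga4 (adjusted p = 0.0206), -1.98 for Itga10 (adjusted p = 0.0166) and 0.89 for Itgb3 (adjusted p = 0.026). Itgb6, a partner of αv in epithelia, had 1.27 CPM in the MT_shKap1 library and 8.55 CPM in the MT_shCtrl library, and 2.16 and 1.14 CPM in MB_shKap1, against 3.69 and 0.886 CPM in MB_shCtrl. Of the other chains DESeq2 with the mark term called 1 higher and 0 lower in this contrast, against 1 higher and 4 lower in edgeR. Without the mark term edgeR called 0 genes in this contrast, 825 had an unadjusted p under 0.05, and DESeq2 called 168. The MT side of each difference is 1 library against 1.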

How the results depend on the processing

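The count of called genes depended on the mark term. Without it edgeR called 0 genes in each contrast. With it, which is the replicate block within MB and pairs same-numbered libraries, edgeR called 631 genes for MB knockdown, 3342 for MT knockdown, 7397 for control differentiation, 5446 for knockdown differentiation and 1724 for the difference between stages. In the same order DESeq2 called 50, 368, 2370, 843 and 168 genes without the term and 331, 1542, 4279, 2918 and 961 with it. Without the term, control differentiation gave 78 genes with DESeq2 size factors, 582 with no filter, and 0 to 141 when 1 library was left out. Knockdown differentiation gave 2 with no filter. With the term, MB knockdown gave 1046 with no filter. The members called in edgeR with the term were 2, 5, 8, 4 and 3 in the same order, against 0 without the replicate block in each. DESeq2 with the term called 4 members for MB knockdown (adding Itga7 and Itga11) and 5 for knockdown differentiation (adding Itga11). For the difference between stages it called 5 (adding Itga6 and Itga7), and in control differentiation it did not call Itgb5. With total count scaling, 62.7% of the MT knockdown calls over all genes were higher, against 44.9% with TMM, and 52.1% of those for the difference between stages, against 36.6%.

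Of 312 alternative values of the 22 called member differences, 126 kept direction and, where a test was run, the call. Of the rest 177 kept direction only and 9 reversed. The 126 include values without a test, which kept direction alone: 20 from the marked files only, 2 within replicate 1 and 2 within replicate 2. Itga6 in control differentiation was -0.45 to 0.77 when 1 library was left out. Itga3 in knockdown differentiation was -0.01 without the replicate block, -0.01 with DESeq2 size factors, -0.05 with no filter and -0.01 with DESeq2, each without the term, and -0.39 to 0.52 when 1 library was left out. Itga7 there was -0.39 to 1.38. The cause was not tested. Low counts limit Itgb7 in the MT libraries and Itgb1bp2 outside MT_shCtrl, and the single library per MT arm limits each MT value.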
